A study of Rattus norvegicus with 6 samples.

Results

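The 10 genes followed here belong to the mitochondrial and death-receptor pathways of apoptosis: Aifm1, Mcl1, Bok, Cflar, Tradd, Cycs, Bad, Casp4, Casp6 and Bak1. They were chosen by the gene symbol of the array annotation, which gave 24 of 16128 spots, 12 of 8064 clones and 10 of 3158 named genes. Each clone is a cDNA printed as 2 adjacent spots. The arrays compared RNA of JA, JB and Amy, 3 rat cell lines from esophageal tumors that arose under reflux, with a pool mixed 1:1 from 2 normal rat esophageal cell lines. Each tumor line was hybridized against the pool on 2 arrays, 1 with the line in Cy3 and the pool in Cy5 and 1 with the dyes exchanged, which gave 6 arrays. The labels give no treatment of the cells, no passage and no further description of the normal lines. Values are log2 ratios of tumor line over normal pool, in which 0 means equal signal and 1 means 2-fold. The base of the logarithm was taken as 2, and the direction was taken from the order of names in the sample titles, so it is likely rather than settled. With all signs turned, higher and lower exchange throughout, and the order of the genes runs the other way. A value of a line is the mean of its 2 arrays, and an SD is over the 3 lines. The same pool enters all 6 ratios, so a departure of the pool in a gene would shift all lines alike.

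Apoptosis dismantles a cell through caspases, proteases that are activated along a receptor route and a mitochondrial route. On the receptor route, bound death receptors gather adaptors such as Tradd and Fadd, which recruit caspase-8, and c-FLIP, the product of Cflar, blocks that step. On the mitochondrial route, members of the BCL-2 family decide whether the outer membrane is breached: Bak and Bok can form pores, Mcl-1 restrains pore formation, and Bad counters survival members. A breached membrane releases cytochrome c, which builds the caspase-activating apoptosome, and AIF, a flavoprotein that also supports the respiratory chain in living cells. Caspase-6 acts late as an executioner, while rodent caspase-4, also known as caspase-11, senses bacterial lipopolysaccharide and drives an inflammatory form of cell death.

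Of the 10 genes, 4 were higher in the tumor lines than in the pool, Aifm1, Bok, Tradd and Cycs, 2 were lower, Mcl1 and Cflar, and 4 did not pass, Bad, Bak1, Casp6 and Casp4. The test took the mean of the 3 lines against 0 in limma, with p-values adjusted over all 7180 features of the array and a threshold of 0.05. At that threshold 53.5% of all features passed, 20.7% higher and 32.8% lower, so 6 of 10 genes is a share near that of the array. The median of the 10 genes was -0.02, against -0.12 for all features. Centring each array on its median moved that reference to 0 and left the calls of all 10 genes where they were. Of the genes, 7 had 1 sign on all 6 arrays, a property of 55.9% of all features.

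**Figure D1:**
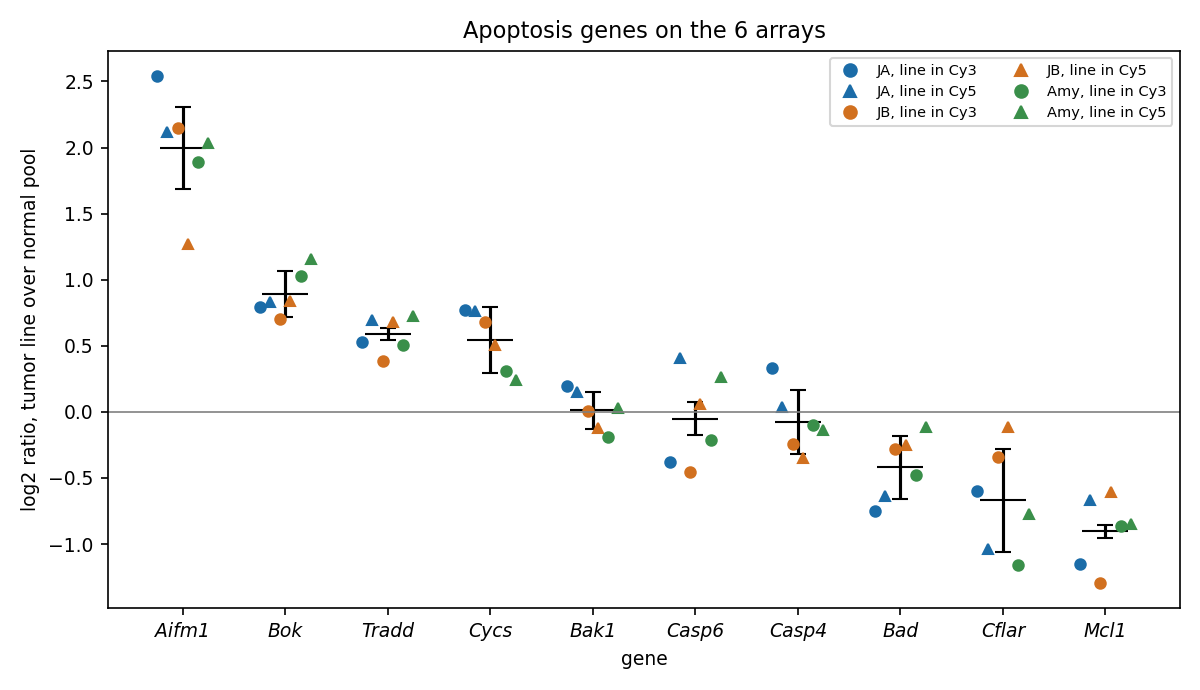
Log2 ratio of tumor line over normal pool (vertical axis) of the 10 apoptosis genes (horizontal axis, ordered by mean) on each array. Colour gives the line, circles are arrays with the line in Cy3 and triangles arrays with the line in Cy5, and bars are the mean ± SD over 3 lines. Aifm1 stands apart at 1.999, and the Casp6 circles all lie below 0 and its triangles above.

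On the receptor route, Tradd, the adaptor that links TNF receptor 1 to cell death and NF-kappaB signaling, was modestly higher in all 3 lines. Its ratios were 0.53 and 0.69 in JA, 0.38 and 0.68 in JB and 0.51 and 0.73 in Amy, with the line in Cy3 given first. All 6 arrays lay above 0, and in this mean of its clones the lines differed among themselves by less than the dye orientations did. The mean was 0.59 ± 0.05 (SD, n = 3 lines), or 1.502-fold, with an adjusted p of 0.00970 in limma. The gene lies on chromosome 19 at 50046057 to 50048158 of assembly GRCr8.

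Tradd was the only 1 of the 10 genes with several clones, and its 3 clones, which carry the same sequence accession in the annotation, did not give the same ratio. The clone at spots 11267 and 11268 read 1.13 and 1.14 in JA, 0.83 and 0.81 in JB and 1.07 and 1.15 in Amy. The clone at spots 1307 and 1308 read 0.17 and 0.64 in JA, 0.29 and 0.89 in JB and 0.47 and 0.71 in Amy. The clone at spots 4011 and 4012 read 0.28 and 0.30 in JA, 0.03 and 0.35 in JB and -0.02 and 0.31 in Amy. The first kept nearly the same value when the dyes were exchanged. The second was higher with the line in Cy5 in all 3 lines. The third was higher with the line in Cy5 in JB and Amy, nearly the same in JA, and close to 0 on 2 arrays. Fitted as separate features, the clones stood at 1.02 ± 0.18 (adjusted p in limma 0.00307), 0.53 ± 0.11 (0.0172) and 0.21 ± 0.07 (0.185). The SD of 0.05 for the gene thus leaves out a spread of 0.81 between its clones. Among 147 accessions with at least 3 named clones, the median range between clones was 0.79, and 71 accessions had a larger range than Tradd. The call for Tradd was lost without JA (adjusted p 0.0635), without Amy (0.0532) and when the pool was given a spread of its own (0.0641). Over 22 alternatives, single clones included, its adjusted p ran from 0.00234 to 0.185.

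**Figure D2:**
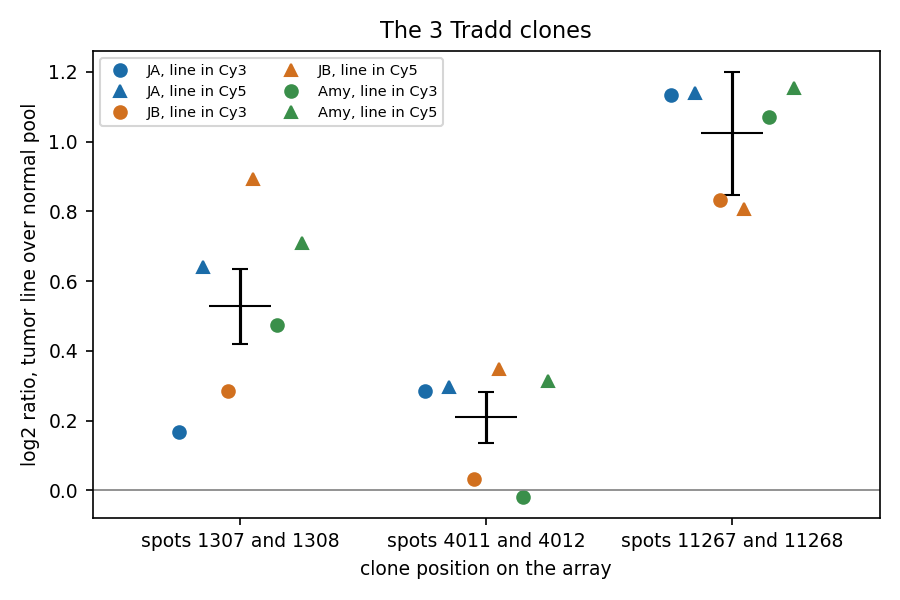
Log2 ratio of tumor line over normal pool (vertical axis) for the 3 Tradd clones (horizontal axis, by spot number). Colour gives the line, circles stand for the line in Cy3, triangles for the line in Cy5, and bars are the mean ± SD over 3 lines. The clones centre on 0.53, 0.21 and 1.02.

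Cflar, the inhibitor of caspase-8 activation at the receptor, was lower in JA and Amy and nearer to the pool in JB. The ratios were -0.60 and -1.03 in JA, -0.34 and -0.11 in JB and -1.16 and -0.77 in Amy. All 6 arrays were below 0, and both JB arrays lay above every array of the other lines. The JB array in Cy3 averages duplicate spots of -0.05 and -0.63. At the second spot it lay slightly below the JA array in Cy3, which read -0.61 there. The mean was -0.67 ± 0.39 (SD, n = 3 lines), or 1.59-fold lower, with an adjusted p of 0.0279 in limma. Its duplicate spots differed by up to 0.75 on 1 array, against a median gap of 0.12 between duplicate spots over all clones and arrays. The call was lost without JA (adjusted p 0.148), without Amy (0.131), without the JB array in Cy3 (0.0505), on the Cy5 arrays alone (0.0559), with a spread for the pool (0.138) and without moderated variances (0.168). Its adjusted p ran from 0.00511 to 0.168 over 20 alternatives. Cflar lies on chromosome 9 at 67679502 to 67747226.

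In the BCL-2 family, the survival gene Mcl1 was lower in every line by nearly the same amount, and the pore-forming Bok was higher. Mcl1 read -1.15 and -0.67 in JA, -1.29 and -0.60 in JB and -0.86 and -0.84 in Amy. All arrays were below 0, and in JA and JB the array with the line in Cy3 was lower by 0.48 and 0.69, whereas in Amy the arrays differed by 0.02. The mean was -0.90 ± 0.05 (SD, n = 3 lines), or 1.87-fold lower (adjusted p 0.00272 in limma). Averaged by dye, it stood at -1.10 with the line in Cy3 and -0.71 with the line in Cy5, a difference that the SD over lines leaves out. Mcl1 passed under all 20 alternatives, with adjusted p from 0.00165 to 0.0306. Its gene lies on chromosome 2 at 185884840 to 185912532.

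The sequence before a start of Mcl1 is shown because Mcl1 was the lowest of the 10 genes, or the highest with signs turned, and its promoter is known to be induced by growth and stress signals. It is the stretch of 250 bases before the transcript start used in the RefSeq promoter table, which lies inside the annotated span of the gene given above, chr2:185907918-185908167 of GRCr8, plus strand, 5′ to 3′. Capitals mark the CRE half-site TGACG or its reverse complement CGTCA, the core of the sites that CREB and ATF proteins bind.
Mcl1: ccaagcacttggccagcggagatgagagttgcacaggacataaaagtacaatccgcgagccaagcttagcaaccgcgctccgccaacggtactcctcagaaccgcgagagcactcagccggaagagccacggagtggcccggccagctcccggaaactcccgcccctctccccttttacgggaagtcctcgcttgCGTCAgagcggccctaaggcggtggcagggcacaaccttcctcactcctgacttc
The half-site was found 1 time, its first base 55 bases before the start. It was present in 18.2% of 33469 RefSeq promoter windows of the same length, on either strand. A match in letters is not a bound site, and binding was not measured.

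Bok, a BCL-2 relative that can open the outer membrane without help from other members, read 0.79 and 0.83 in JA, 0.70 and 0.84 in JB and 1.03 and 1.15 in Amy. All arrays were above 0, the dye orientations agreed within 0.14 in each line, and both Amy arrays exceeded all arrays of the other lines. Duplicate spots of Bok differed by up to 0.39, on the JA array in Cy3, where they read 0.60 and 0.98. At the second of these spots the Amy array in Cy3 read 0.95, below JA. The mean was 0.89 ± 0.18 (SD, n = 3 lines), or 1.85-fold higher, with an adjusted p of 0.00406 in limma. The call was lost under 1 of 20 alternatives, unmoderated variances (adjusted p 0.0598, range from 0.000602 to 0.0598). Bok lies on chromosome 9 at 101670729 to 101681834.

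Bak1, the other pore-forming member measured, stood at the level of the pool. It read 0.20 and 0.15 in JA, 0.01 and -0.13 in JB and -0.19 and 0.03 in Amy. The signs were mixed, and only JA was above 0 on both arrays. The mean was 0.01 ± 0.14 (SD, n = 3 lines; adjusted p 0.948 in limma), with a 95% interval of -0.30 to 0.32. The interval leaves room for a small change of Bak1 in either direction, and it is not a limit of detection. Bak1 lies on chromosome 20 at 5102334 to 5111615.

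Bad, a death-promoting member held inactive by phosphorylation and 14-3-3 proteins, was below 0 on all 6 arrays but did not pass. It read -0.75 and -0.63 in JA, -0.28 and -0.25 in JB and -0.48 and -0.11 in Amy. JA was the lowest line in both dye orientations. The mean was -0.42 ± 0.24 (SD, n = 3 lines; adjusted p 0.0540 in limma), with a 95% interval of -0.77 to -0.06. With the dye orientation as a block and the line as a random block the adjusted p was 0.0324, and 6 of 20 alternatives passed, over a range of 0.0324 to 0.221. Bad lies on chromosome 1 at 213562719 to 213572034.

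Of the proteins released from mitochondria, Aifm1 was the most raised of the 10 genes, or the most lowered with signs turned. It read 2.54 and 2.11 in JA, 2.15 and 1.27 in JB and 1.89 and 2.03 in Amy. Every array was above 1, with the lowest value on the JB array in Cy5, 0.88 below its partner. The mean was 1.999 ± 0.31 (SD, n = 3 lines), or 3.996-fold (adjusted p 0.000769 in limma), and 98.7% of named genes had a lower mean, or a higher one with signs turned. The call was lost under 1 of 20 alternatives, unmoderated variances (adjusted p 0.0513, range from 0.000247 to 0.0513). Aifm1 was measured by 1 clone and lies on chromosome X at 132528107 to 132567237.

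Cycs, which encodes somatic cytochrome c, was higher by a smaller amount. It read 0.77 and 0.77 in JA, 0.68 and 0.50 in JB and 0.31 and 0.24 in Amy. All arrays were above 0, and both Amy arrays lay below all arrays of JA and JB. The mean was 0.55 ± 0.25 (SD, n = 3 lines), or 1.46-fold, with an adjusted p of 0.0259 in limma. The call was lost without JA (adjusted p 0.134), without JB (0.0554), with a spread for the pool (0.131) and without moderated variances (0.128), over a range of 0.00907 to 0.134 in 20 alternatives. Cycs is a gene with many processed pseudogenes, and a cDNA spot may also bind related transcripts. It lies on chromosome 4 at 80982667 to 80984767.

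Both genes are nuclear genes for mitochondrial proteins, and Cycs is a textbook target of NRF1, the transcription factor of many such genes. Their RefSeq promoters are shown because both were higher and both hold the NRF1 core. The stretches are the 250 bases before the start, chrX:132567238-132567487 for Aifm1 and chr4:80984768-80985017 for Cycs, both minus strand of GRCr8, 5′ to 3′. Capitals mark the core GCATGCGC.
Aifm1: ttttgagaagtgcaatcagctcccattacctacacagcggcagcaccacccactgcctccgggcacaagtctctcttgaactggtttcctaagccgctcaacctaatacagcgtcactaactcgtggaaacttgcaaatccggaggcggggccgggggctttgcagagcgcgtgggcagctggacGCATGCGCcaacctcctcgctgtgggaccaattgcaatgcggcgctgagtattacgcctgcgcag
Cycs: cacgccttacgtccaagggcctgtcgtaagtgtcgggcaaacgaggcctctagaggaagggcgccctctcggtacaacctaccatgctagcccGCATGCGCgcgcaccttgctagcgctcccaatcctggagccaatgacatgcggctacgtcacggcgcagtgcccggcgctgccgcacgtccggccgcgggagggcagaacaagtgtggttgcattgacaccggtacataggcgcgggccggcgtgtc
The core begins 65 bases before the start of Aifm1 and 157 bases before that of Cycs. On either strand, 2.20% of 33469 promoter windows held it. RefSeq promoters were matched for 7 of the 10 genes, and the core was found in these 2 of the 7. Tradd, Bok and Casp4 were not searched. The CRE half-site TGACG was found in 3 of the 7, Aifm1, Cycs and Mcl1, thus in genes that rose and in 1 that fell. The GC box GGGCGG was found in Bak1, Casp6 and Mcl1, and in 30.5% of all windows. These motifs were chosen after the ratios were seen, and the counts are a description of letters in a window.

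Neither caspase passed. Casp6 read -0.38 and 0.40 in JA, -0.45 and 0.06 in JB and -0.21 and 0.26 in Amy. Each line was below the pool with the line in Cy3 and above it with the line in Cy5, so the sign followed the dye. The mean with the line in Cy3 was -0.35 and with the line in Cy5 0.24. Such a reversal in all 3 lines was seen in 4.58% of all features and in no other of the 10 genes. The mean over both orientations was -0.05 ± 0.12 (SD, n = 3 lines; adjusted p 0.728 in limma), with a 95% interval of -0.36 to 0.25. With centred arrays the mean was 0.07, so its sign depends on the centring as well. Casp6 lies on chromosome 2 at 221140287 to 221152727.

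Casp4 read 0.33 and 0.04 in JA, -0.24 and -0.35 in JB and -0.10 and -0.14 in Amy. Both JA arrays were above 0 and all arrays of JB and Amy below. It was the only case among the 10 genes of lines with opposite signs on both arrays, against 10.4% of all features. The JA array in Cy5 averages duplicate spots of -0.06 and 0.14, so the sign there differed between spots. With arrays centred on their medians Amy stood at 0.01 and the mean over lines was 0.05, so both signs depend on the centring. The mean was -0.08 ± 0.24 (SD, n = 3 lines; adjusted p 0.670 in limma), with a 95% interval of -0.44 to 0.28. Casp4 lies on chromosome 8 at 10883817 to 10919978.

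Ordered by mean ratio, the genes ran from Aifm1 through Bok, Tradd, Cycs, Bak1, Casp6, Casp4, Bad and Cflar to Mcl1. The step from Aifm1 to Bok was 1.11 and exceeded the larger SD of the pair, 0.31. Steps from Bok to Tradd, from Cycs to Bak1 and from Casp4 to Bad also exceeded the larger SD. That SD leaves out the spread between Tradd clones, and the place of Tradd depends on the clone. The clones stood at 1.02, 0.53 and 0.21, the first of them above Bok at 0.89. Tradd and Cycs, the run Bak1, Casp6 and Casp4, and the run Bad, Cflar and Mcl1 were neighbours that differed by less than that spread. These are differences between line and pool, and they say nothing of which transcript was more abundant.

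None of the 10 genes set a line apart from both others by at least 1 on the log2 scale in both dye orientations, a distance reached by 2.77% of all features. The range over lines was largest for Cflar, at 0.74, then Aifm1 at 0.62, Cycs at 0.49 and Casp4 at 0.48, against a median of 0.44 over all features. It was smallest for Tradd at 0.08 and Mcl1 at 0.09, and 3.4% and 4.1% of features had a smaller range. The Tradd value averages 3 clones that differed in their lowest line. That line was JA at spots 1307 and 1308, Amy at spots 4011 and 4012, and JB at spots 11267 and 11268. In the last clone JB stood at 0.82 and JA at 1.14, so the small range is not a property of each clone. JB was the lowest line in 6 of 10 genes, Amy in 3 and JA in 1. How often each line was the lowest over all features was not counted. For Tradd and Mcl1, counted here for JB, the range over lines was below the gap between the JB arrays, 0.30 and 0.69. With 1 replicate for each line these differences between lines carry no test. A ratio of at least 2-fold on both arrays of a line was reached by Aifm1 in JA and JB and by Aifm1 and Bok in Amy, and by 21.0%, 17.3% and 17.0% of all features in JA, JB and Amy.

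Exchanging the dyes moved some genes more than the lines did. The gap between the 2 arrays of a line was up to 0.88 for Aifm1 in JB, 0.78 for Casp6 in JA and 0.69 for Mcl1 in JB. It was at most 0.14 for Bok and 0.17 for Cycs. The median over all features of the largest gap among the 3 lines was 0.48. Averaging both orientations removes a dye effect that is the same in both, and no spot intensities were used, so a ratio near 0 cannot be told apart from a dim spot.

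**Figure D3:**
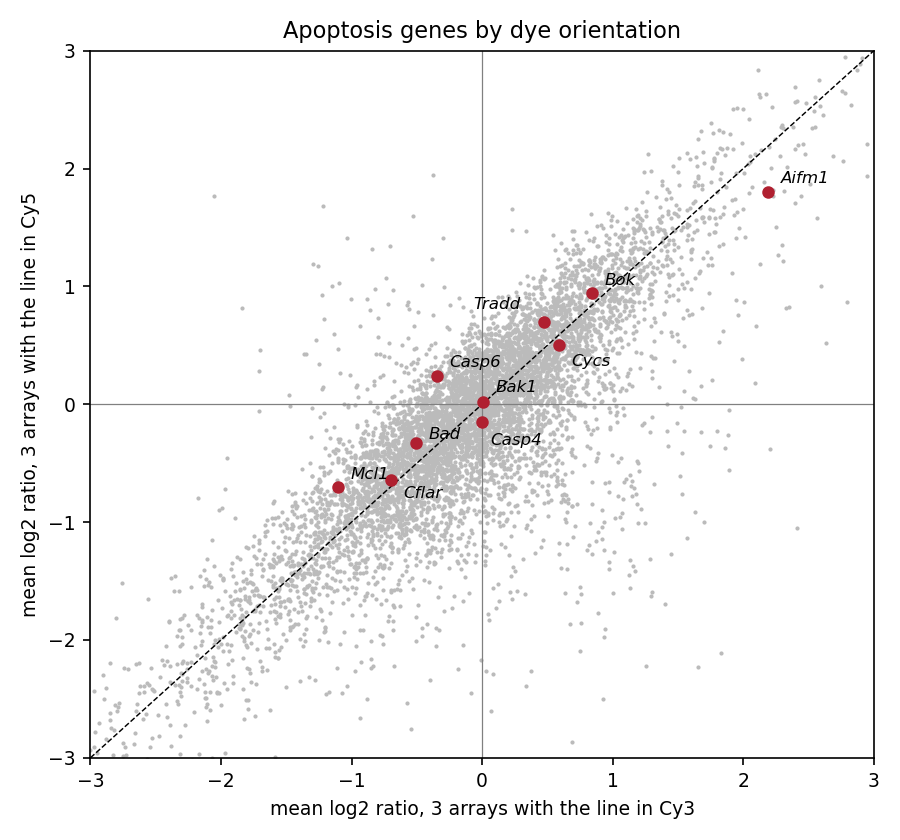
Mean log2 ratio of the 3 arrays with the line in Cy3 (horizontal axis) against that of the 3 arrays with the line in Cy5 (vertical axis). Grey points are all features, red points the 10 apoptosis genes, and the dashed line marks equal values. The axes end at 3 on either side, which leaves 217 features outside. Casp6 lies in the quadrant of opposite signs, at -0.35 and 0.24.

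Beyond these genes, 108 other genes of apoptosis were listed by role, and 32 of them were measured as named genes. Of the 32, 5 rose, 13 fell and 14 stayed short of the threshold. Their median was -0.39, against -0.12 for all features, of which 53.5% were called, 20.7% higher and 32.8% lower. The counts by role below are of few genes each and were not tested against these shares. No gene of the listed caspases, survival members of the BCL-2 family or IAP family, nor Bax, carried a single symbol in the annotation used here, and they were not analysed.

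Among ligands and receptors, 3 of 5 measured genes fell in limma and the other two did not pass, with a median of -0.70. The ligand Tnfsf12, also called TWEAK, stood at -3.15 ± 0.70, the death receptor Fas at -1.69 ± 0.50 and the ligand Lta at -0.70 ± 0.19 (adjusted p 0.00105, 0.00276 and 0.00859). The call of Lta was lost in 6 of 19 alternatives, with adjusted p from 0.00584 to 0.165 and 0.0816 with the dye orientation as a block. Tnfsf12 averaged -2.19 with the line in Cy3 and -4.11 with the line in Cy5. Fas was below 0 on all 6 arrays and nearest to the pool in JB, as Cflar was. Among the listed adaptors, kinases and inhibitors, 1 of 5 rose and 3 fell. Ripk3, the kinase of necroptosis, rose to 1.60 ± 0.24, while Faim, an inhibitor of Fas signaling, fell to -1.07 ± 0.06 and Bcl10, an adaptor of NF-kappaB activation, to -5.89 ± 0.86 (adjusted p 0.00105, 0.00175 and 0.000276). Faim averaged -0.64 with the line in Cy3 and -1.49 with the line in Cy5, and Ripk3 averaged 1.24 and 1.97. Their SDs over lines leave these gaps out.

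Both measured BH3-type relatives fell in limma, Bnip3, a mitochondrial protein of mitophagy and cell death, to -4.52 ± 0.26 and Bcl2l14 to -0.67 ± 0.19 (adjusted p 6.02e-05 and 0.0105). The call of Bcl2l14 was lost in 3 of 19 alternatives, with adjusted p from 0.00335 to 0.0805. Of 4 mitochondrial channel genes, 2 rose and 1 fell. With a spread for the pool, 0 were called higher. The same held with any 1 line left out, with the line in Cy3 alone and without moderated variances. Vdac1 rose to 0.39 ± 0.17 (adjusted p 0.0466 in limma). The voltage-dependent anion channel Vdac2, known to hold Bak in check, fell to -0.86 ± 0.07 and the ADP/ATP carrier Slc25a5 rose to 0.50 ± 0.32 (adjusted p 0.00324 and 0.0461). The call of Slc25a5 was lost in 10 of 19 alternatives, with adjusted p from 0.0173 to 0.315. Vdac3 stood at -0.64 ± 0.65 and did not pass (adjusted p 0.0872, and 0.0431 with the dye orientation as a block, over a range of 0.0286 to 0.307). The 1 other release-related gene measured, Ghitm, which shapes the mitochondrial inner membrane, stood at 0.23 ± 0.17 and did not pass (adjusted p 0.186).

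Of 4 nuclease and caspase substrate genes, 1 fell and 3 did not pass. The 1 that fell was Dffa, the inhibitor of the caspase-activated DNase, at -0.75 ± 0.45 (adjusted p 0.0261 in limma), a call lost in 6 of 19 alternatives with adjusted p from 0.00966 to 0.174. The nuclear lamin Lmna stood at -0.38 ± 0.18 and Acin1 at 0.33 ± 0.17, and neither passed (adjusted p 0.0569 and 0.0815). With the dye orientation as a block Lmna had an adjusted p of 0.0370, over a range of 0.0339 to 0.300 in 19 alternatives. Of 11 regulators of BCL-2 proteins, 2 rose and 3 fell. The kinases Pim1 and Pim3, which phosphorylate Bad, fell to -2.86 ± 0.31 and -1.21 ± 0.42, and the 14-3-3 protein Ywhaq, of the family that binds phosphorylated Bad, rose to 1.07 ± 0.27 (adjusted p 0.000262, 0.00518 and 0.00374).

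**Figure D4:**
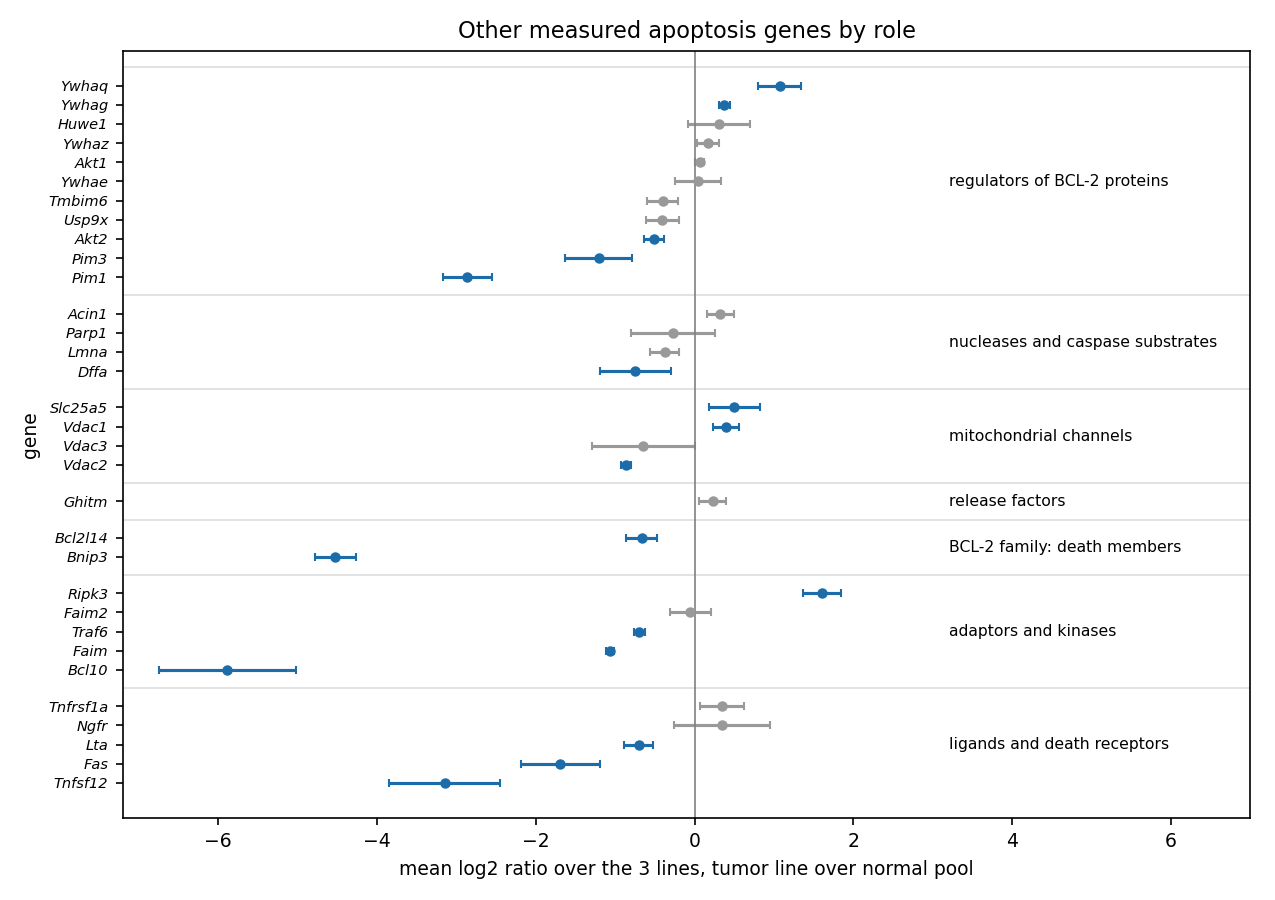
Mean log2 ratio of tumor line over normal pool (horizontal axis) of 32 other apoptosis genes (vertical axis), grouped by role, with bars for the SD over 3 lines. Blue genes passed the test in limma and grey genes did not. Bcl10 at -5.89 and Bnip3 at -4.52 are the lowest, and Ripk3 at 1.60 is the highest.

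The named genes with the array pattern nearest to Aifm1, by Euclidean distance over the 6 arrays, were Shroom2 at a distance of 0.65, Cenpt at 0.90 and Pclaf at 0.98. Those nearest to Mcl1 were Rab11b at 0.20, Mk1 at 0.22 and Aplf at 0.26. All 6 arrays share the pool, and 3 lines are few points for a likeness.

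The cell type of lines and pool could be checked only as ratios. Of 16 listed epithelial markers, 3 were measured, of which Cdh3 rose to 1.98 ± 0.15, Lgals7 fell to -5.82 ± 1.01 and Krt8 at 0.41 ± 0.40 did not pass. Of the measured markers of other cell types, 7 of 8 fibroblast, 8 of 9 leukocyte, 4 of 4 muscle and 3 of 3 endothelial genes were lower in the tumor lines, with means down to -8.999. Tyrobp, a leukocyte gene, was higher. The same ratios put most of these fibroblast, leukocyte, muscle and endothelial transcripts higher in the pool, which is described as 2 normal esophageal cell lines. Which cells the RNA of the pool came from was not tested. In bulk RNA, fewer cells of a type and less RNA per cell cannot be told apart. The part of these markers in the ratios of the apoptosis genes was not tested.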

How the data were processed

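The deposited values are log2 ratios of the 2 channels for every spot. How they were scanned, background-corrected, normalized and filtered, and their log base, are not given in the sources used here; the lowest, -12.7, would be beyond a scanner's range in base 10. Signs were kept as deposited, because both arrays of a line ran the same way over all features (Pearson's r of 0.844 for JA, 0.815 for JB and 0.888 for Amy). Medians of the arrays ranged from -0.15 to -0.05, and r between adjacent spots from 0.907 to 0.949.

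The platform annotation named 8084 spots by 1 symbol, 40 by several and 8004 by none. Of these, 8076 were matched by gene identifier to RefSeq of GRCr8, which changed 0 symbols. Averaging the spots of each gene, and of each unnamed clone, gave 7180 features. The labels give the arrays of a line as dye swaps of each other, so they were averaged as 1 replicate and n is 3 lines, whose number limits the precision. The labels do not say whether separate cultures were used, so p-values rest on the spread between these lines, not between cultures. Their mean was set against 0 with limma 3.58.1 (lmFit, eBayes; R 4.3.3), using a two-sided test and Benjamini-Hochberg adjustment. This treats the pool as a single control without spread. The eBayes step draws the variance of each feature toward that of all features. Tradd and Mcl1, each with an SD over lines of 0.05, thereby had a standard error of 0.11. The script was tested on simulated data. Replicate numbers stand for dye orientation, taken from the labels; the effect of exchanging the dyes correlated at 0.526 to 0.613 between lines, so arrays of 1 orientation pair.

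The genes, lists and markers were chosen with earlier results of these data known. Beyond the 10 genes, those named had the largest absolute mean in a role, at most 3 a role. Exceptions were Vdac1, Tyrobp, the epithelial markers and the genes in the closing section, which were chosen after their values were seen. Alternatives were centred, scaled or quantile normalized arrays, single orientations, lines or arrays left out, a variance for the pool, robust or unmoderated variances, a replicate block, single clones and a dye-swap filter. Plots were made in matplotlib 3.10.9 (Python 3.11.15).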

Additional observations from a re-analysis of the deposited data

Results flagged for a closer look

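Among the 10 genes and the 32 other apoptosis genes measured, 6 had lines on opposite sides of the pool on both of their arrays. Over all features, 747 of 7180, or 10.4%, met the same rule. Some of these signs rest on an array close to 0. With the line in Cy5, Amy read 0.01 for Faim2, 0.02 for Parp1 and 0.02 for Vdac3, and JA read 0.04 for Casp4. The sign of Casp4 in Amy also changed with centred arrays. The differences between lines were not tested, since each line is 1 replicate. For Casp4, JA exceeded JB by 0.48 and Amy by 0.31 on the log2 scale. For Vdac3, a voltage-dependent anion channel of the outer mitochondrial membrane, JA minus Amy was -0.82 and JB minus Amy was -1.28, with Amy itself at 0.05. For Ngfr, a neurotrophin receptor of the death-receptor family, JA minus JB was 0.62 and JB minus Amy was -1.20. JB minus Amy was -0.98 for Parp1, a DNA damage sensor that caspases cleave, -0.58 for the 14-3-3 gene Ywhae and -0.45 for Faim2, an inhibitor of Fas signaling.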

How the results depend on the processing

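Mcl1 kept its direction and its side of the threshold under all alternatives run. Bad passed with arrays scaled (-0.41, adjusted p 0.0473) or quantile normalized (-0.41, 0.0434), and with the line in Cy3 (-0.50, 0.0405). It also passed without the Amy array in Cy5 (-0.48, 0.0451), with the replicate block (-0.42, 0.0324) and after the dye-swap filter (-0.42, 0.0437). The block changed no other call among the 10 genes; among the others named it lost Lta and called Vdac3 and Lmna (0.0370). With the line in Cy5 alone, Cflar (-0.64, 0.0559) was lost. A spread for the pool lost Tradd (0.59), Cflar (-0.67) and Cycs (0.55). Unmoderated variances lost Cflar (-0.67), Bok (0.89), Cycs (0.55) and Aifm1 (1.999). Fitted alone, 1 Tradd clone was lost (0.21). Casp6 and Casp4, uncalled, changed sign with centred arrays (0.069 and 0.046), as did Casp6 with the line in Cy5 (0.24). Where the mean stays and the call goes, the alternative itself changed the variance or the degrees of freedom; the cause of the other changes was not tested. Of the 10 genes, 4 were higher and 2 lower. These counts became 2 and 1 with a spread for the pool, 1 and 1 without moderation, and 4 and 1 with the line in Cy5. Of all features, 1487 higher and 2356 lower became 667 and 1303 with a spread for the pool, 300 and 740 without moderation, and 1844 and 1981 with centred arrays. Of the other apoptosis genes, 5 higher became 2 with the line in Cy3, 2 with a spread for the pool and 0 in limma fits without moderation (3 at an unadjusted p under 0.05), where 6 in place of 13 were lower. With a line or an array left out in turn, means ran from 0.54 to 0.64 for Tradd, -0.89 to -0.52 for Cflar, -0.49 to -0.28 for Bad, 0.43 to 0.68 for Cycs, -0.071 to 0.057 for Bak1, -0.18 to 0.077 for Casp6 and -0.21 to 0.032 for Casp4. Of the 10 genes 2 to 4 were then higher and 1 to 3 lower, of all features 709 to 1448 and 1367 to 2301, and of the other apoptosis genes 2 to 4 and 10 to 14. The lowest counts over all features came without JA, where 2 of the 10 genes were higher and 1 lower. Counts among genes were not recomputed on single clones.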
